A study of Rattus norvegicus with 48 samples.

Results

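miR-322 and miR-503 are a pair of microRNAs (miRNAs) whose hairpin precursors lie beside each other on the rat X chromosome. Both hairpins release a mature miRNA from each of their arms, which are named 5p and 3p. These 4 mature miRNAs, rno-miR-322-5p, rno-miR-322-3p, rno-miR-503-5p and rno-miR-503-3p, were taken by name from the 645 miRNAs counted in rat plasma during the healing of a skull defect. They were picked because earlier results from the same counts had all 4 lower after surgery than before it. Their levels over time are therefore given as a description, and the tests that bear on the 4 are those between animals that regenerated bone well and poorly. Tests against baseline were run across all miRNAs and are used for the lists of other miRNAs.

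Blood came from 12 male rats in which a defect of the calvaria, the roof of the skull, was made at 12 weeks of age, and plasma small RNA was sequenced from blood drawn ahead of surgery (week 0, the baseline) and from blood drawn 1, 4 and 8 weeks later. The methods of the study name the strain as Sprague-Dawley and its abstract as Wistar. The defects were left empty or filled with a collagen-hydroxyapatite scaffold, with or without a plasmid for BMP2 and miR-590-5p or vesicles from Wharton's jelly stromal cells, and the treatment of each rat was not mapped here. By the bone volume on microCT scans, 6 rats were classed as strong regenerators and 6 as weak regenerators, irrespective of treatment, so that each of the 8 groups of regeneration class and week held 6 samples. The treatments were not balanced between the classes. In the paper the scaffold alone occurs only among the strong regenerators, and the plasmid scaffold mostly among the weak. Regeneration class and treatment therefore cannot be fully told apart. The labels give the regeneration class of the baseline samples as unknown, and those samples were assigned by animal. Every rat was operated, so that healing, ageing and the order of sampling cannot be told apart.

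A miRNA works as a guide that leads an Argonaute protein to matching messenger RNAs, mostly through its seed, the bases near its 5′ end, and the targets are repressed. miR-322 is the rodent counterpart of human miR-424. miR-322-5p and miR-503-5p belong to the extended miR-15/16 family, are known to repress cell cycle genes such as cyclin D1 and Cdc25a, and have been studied in muscle and skeletal differentiation. The 3p strand of a hairpin carries another seed and is loaded separately, and in many hairpins one strand is retained while the other is degraded.

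The mature sequences are shown because the seeds decide which other plasma miRNAs could be compared with these 4. They are taken from RefSeq (assembly GRCr8, minus strand of chromosome X), which matched 583 of the 645 counted miRNAs, and capitals mark the seed, bases 2 to 8. miR-322-5p lies at chrX:137726198-137726219, miR-322-3p at chrX:137726162-137726181, miR-503-5p at chrX:137725899-137725921 and miR-503-3p at chrX:137725859-137725881.
miR-322-5p: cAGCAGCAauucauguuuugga
miR-322-3p: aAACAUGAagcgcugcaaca
miR-503-5p: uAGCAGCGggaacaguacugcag
miR-503-3p: gGAGUAUUguuuccgcugccugg
The seed of miR-322-5p was shared with 4 other counted miRNAs that had a sequence, shown here for comparison with the same capitals.
miR-15b-5p: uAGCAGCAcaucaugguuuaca
miR-16-5p: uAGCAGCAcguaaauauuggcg
miR-195-5p: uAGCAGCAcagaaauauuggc
miR-497-5p: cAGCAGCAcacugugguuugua
miR-503-5p shared the first 6 bases of that seed and differed at its last base. The full seeds of miR-503-5p, miR-322-3p and miR-503-3p were found in no other of the 583 miRNAs, so the 3p arms shared their seeds neither with each other nor with the 5p arms.

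The hairpins are shown to place the arms, which are in capitals. The Mir322 hairpin has 95 bases at chrX:137726147-137726241 and the Mir503 hairpin 71 bases at chrX:137725856-137725926, with 220 bases between them.
Mir322: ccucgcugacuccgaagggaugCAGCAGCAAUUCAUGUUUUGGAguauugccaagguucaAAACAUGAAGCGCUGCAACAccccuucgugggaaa
Mir503: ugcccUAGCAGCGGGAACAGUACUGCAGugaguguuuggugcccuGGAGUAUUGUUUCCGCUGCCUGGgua
Both belong to a row of 6 hairpins, with Mir351, Mir542, Mir450b-1 and Mir450a1, that spans 5309 bases.

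The total miRNA count ranged from 393259 to 1586398 per sample, with a median of 796311, and levels are given in RPM, the reads of a miRNA scaled to a common total of miRNA reads. The week 8 samples stood apart in their share of spike-in reads, so that the week 8 values are also given on a spike-in scale. All 4 miRNAs had reads in every sample. Over the 48 samples, miR-322-3p averaged 1420 RPM and was the 61st most abundant of the 645 miRNAs, miR-503-3p averaged 210.03 RPM (144th), miR-322-5p 203 RPM (147th) and miR-503-5p 76.9 RPM (192nd). The 3p arm was thus the more abundant arm of both hairpins in reads, although ligation and amplification also set how many reads a given miRNA yields.

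miR-322-3p, the most abundant of the 4, fell furthest of all by week 8. At baseline rno-miR-322-3p lay between 2646 and 4370 RPM in strong regenerators (median 2978) and between 1739 and 3728 RPM in weak regenerators (median 2747). At week 8 it lay between 245 and 535 RPM (median 402) and between 238 and 638 RPM (median 316), in the same order. No sample of weeks 1, 4 or 8 reached the lowest baseline sample, while strong and weak regenerators overlapped at every week. Over the 12 rats, it ran from 772 to 1664 RPM at week 1 (median 1119) and from 748 to 1462 RPM at week 4 (median 1119). Its mean was 2970 ± 732 RPM before surgery and then 1232 ± 299, 1086 ± 253 and 391 ± 128 RPM at the 3 later weeks (SD, n = 12). Within rats, the log2 change from baseline, on log2(RPM + 1), was -1.27 ± 0.59, -1.45 ± 0.47 and -2.95 ± 0.48 at weeks 1, 4 and 8 (SD, n = 12), the last being 7.73-fold lower. This scale is kept below, except that changes given with edgeR or an FDR are estimates of edgeR's count model and can differ.

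miR-322-5p, the arm with the miR-16 type seed, had the shallowest fall of the 4. At baseline rno-miR-322-5p lay between 326 and 425 RPM in strong regenerators (median 381) and between 245 and 387 RPM in weak regenerators (median 338). At week 8 it lay between 83.1 and 154 RPM (median 112) and between 56.7 and 188 RPM (median 108), in the same order. All 36 later samples were below the lowest baseline sample, although the highest sample of week 8 came close to the mean of week 1. Over the 12 rats, it ran from 119 to 242 RPM at week 1 (median 198) and from 96.4 to 211 RPM at week 4 (median 154). The mean was 355 ± 55.1 RPM before surgery and then 190 ± 36.0, 156 ± 36.1 and 112 ± 35.2 RPM (SD, n = 12). The log2 change from baseline was -0.91 ± 0.41, -1.20 ± 0.38 and -1.70 ± 0.39 at weeks 1, 4 and 8 (SD, n = 12), so that 30.8% of the baseline level was left at week 8.

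miR-503-5p was the scarcest of the 4, with 8 to 47 reads per sample at week 8. At baseline rno-miR-503-5p lay between 124 and 247 RPM in strong regenerators (median 154) and between 88.9 and 160.3 RPM in weak regenerators (median 139). At week 8 it lay between 25.4 and 47.5 RPM (median 31.6) and between 18.3 and 43.2 RPM (median 23.8), in the same order. At week 1, 3 of the 12 samples still reached into the baseline range, and at weeks 4 and 8 none did. Over the 12 rats, it ran from 36.8 to 108 RPM at week 1 (median 61.8) and from 48.6 to 88.0 RPM at week 4 (median 56.8). The mean was 149 ± 40.9 RPM before surgery and then 67.3 ± 24.4, 61.3 ± 12.5 and 30.3 ± 9.23 RPM (SD, n = 12). The log2 change from baseline was -1.17 ± 0.46, -1.24 ± 0.44 and -2.27 ± 0.38 at weeks 1, 4 and 8 (SD, n = 12), which left 20.8% at week 8.

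miR-503-3p, the more abundant arm of its hairpin, had the largest early fall of the 4. At baseline rno-miR-503-3p lay between 334 and 612 RPM in strong regenerators (median 465) and between 225 and 522 RPM in weak regenerators (median 455). At week 8 it lay between 57.7 and 144 RPM (median 89.2) and between 40.5 and 131 RPM (median 79.2), in the same order. At weeks 1 and 4, 1 of the 12 samples reached into the baseline range, and at week 8 none did. Over the 12 rats, it ran from 101 to 248 RPM at week 1 (median 172) and from 80.5 to 232 RPM at week 4 (median 136). The mean was 439 ± 103 RPM before surgery and then 167 ± 39.5, 147 ± 50.5 and 87.6 ± 30.4 RPM (SD, n = 12). The log2 change from baseline was -1.38 ± 0.55, -1.61 ± 0.57 and -2.35 ± 0.69 at weeks 1, 4 and 8 (SD, n = 12), which left 19.6% at week 8.

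**Figure D1:**
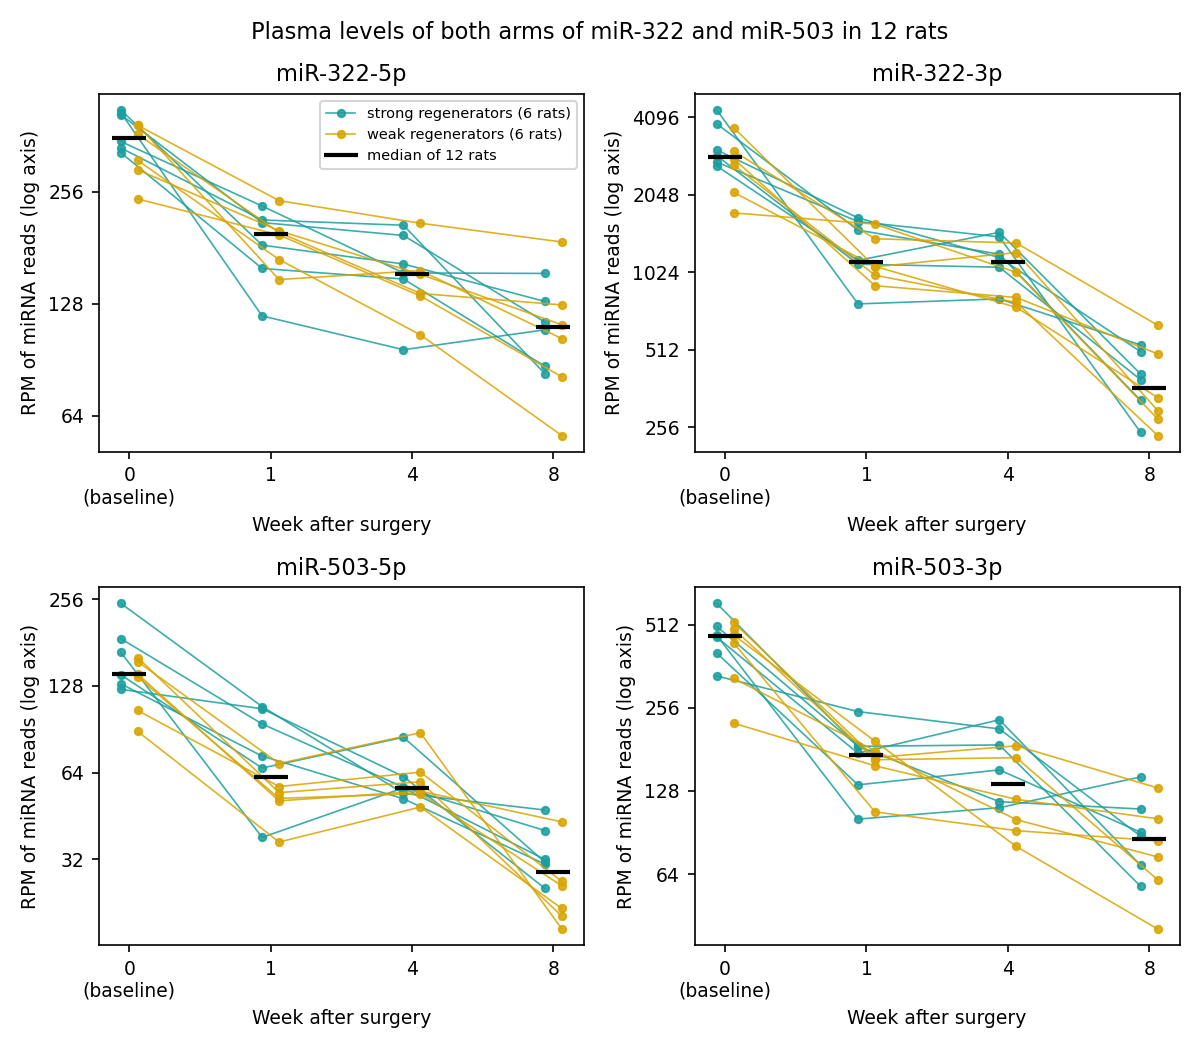
RPM of miR-322-5p, miR-322-3p, miR-503-5p and miR-503-3p (log axis) against the week after surgery, with 1 line per rat for the 6 strong (teal) and 6 weak (yellow) regenerators and black bars for the median of 12 rats. Every rat had its highest level of each miRNA at baseline, and the lines of both classes run through each other.

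All 12 rats were below their own baseline for each of the 4 miRNAs at each of the 3 later weeks. By mean level the order from high to low was baseline, week 1, week 4 and week 8 for each of the 4, but the neighbouring weeks 1 and 4 were close. Between them the log2 change was -0.30 ± 0.24 for miR-322-5p, which was lower at week 4 in 11 of 12 rats, and -0.18 ± 0.30 for miR-322-3p, lower in 9 rats. For the miR-503 arms it was smaller than its SD, with -0.07 ± 0.52 for miR-503-5p (lower in 4 rats) and -0.22 ± 0.48 for miR-503-3p (lower in 6 rats). Between weeks 4 and 8 the log2 change was -1.50 ± 0.57 for miR-322-3p, -1.03 ± 0.56 for miR-503-5p, -0.74 ± 0.69 for miR-503-3p and -0.49 ± 0.43 for miR-322-5p. For each of the 4 the mean changes were thus largest in size to week 1 and from week 4 to week 8. miR-322-5p was also lower in 11 of 12 rats at both of its later steps. A fall at every step was seen in 10 rats for miR-322-5p, 9 for miR-322-3p, 6 for miR-503-3p and 4 for miR-503-5p.

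Among the 310 miRNAs with a mean of at least 10 RPM, miR-322-3p ranked 3rd, 3rd and 1st by the size of its fall at weeks 1, 4 and 8, and miR-503-3p ranked 2nd, 2nd and 7th. miR-503-5p ranked 6th, 7th and 8th, and miR-322-5p 14th, 9th and 27th. The median change of the 310 miRNAs was -0.15, -0.04 and -0.22 at the same weeks. All 4 were called lower at each week by edgeR's quasi-likelihood test with Benjamini-Hochberg adjustment (FDR under 0.05), which called 9.05% of the miRNAs tested lower at week 1, 4.03% at week 4 and 26.1% at week 8. As this contrast chose the 4 miRNAs, nothing is read from that count.

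Other values of the plasma moved with the weeks. The haemolysis ratio, the log2 of miR-451-5p, a red cell miRNA, over miR-23a-3p, averaged 2.15 ± 0.57 before surgery and then 2.67 ± 0.71, 2.55 ± 0.60 and 2.95 ± 0.44 (SD, n = 12). The 4 red cell miRNAs listed, all counted and none at 0, summed to 102266 to 201357 RPM at baseline and 177486 to 311316 RPM at week 8. miR-451-5p made up most of this rise, with a log2 change of 1.04 at week 8 (edgeR, FDR = 1.03e-05), and miR-144-5p also rose (1.15, FDR = 4.09e-07). miR-144-3p of the same list was lower at week 8 (-0.41, FDR = 0.0449), and miR-486 was not called (0.25, FDR = 0.2). A larger red cell share lowers the RPM of all other miRNAs in a sample, and its part in the fall of miR-322 and miR-503 was not tested. Fewer releasing cells and less RNA released per cell cannot be told apart in plasma.

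The synthetic spike-in UniSp2, added during extraction, gave a scale that does not depend on the other miRNAs. It had 23.3 to 60.4 reads per 1000 miRNA reads at weeks 0, 1 and 4, and 91.1 to 143.9 at week 8, without overlap. Per 1000 UniSp2 reads, the mean fell from 88.4 at baseline to 3.27 reads at week 8 for miR-322-3p, from 13.0 to 0.724 for miR-503-3p, from 10.6 to 0.936 for miR-322-5p and from 4.43 to 0.254 for miR-503-5p. On this scale the median of all 310 miRNAs also moved, by -2.00 on the log2 scale at week 8. Relative to that median the 4 miRNAs changed much as in RPM, by -2.78 for miR-322-3p against -2.73 in RPM, by -2.16 against -2.13 for miR-503-3p, by -2.03 against -2.04 for miR-503-5p and by -1.52 against -1.48 for miR-322-5p. A change of scale shifts all miRNAs of a sample alike, so this distance could hardly move, and nothing is read from it. The spike-in did move how far the 4 miRNAs fell at week 8. Weeks 1 and 4 had much smaller shifts of the median (-0.35 and -0.31).

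**Figure D2:**
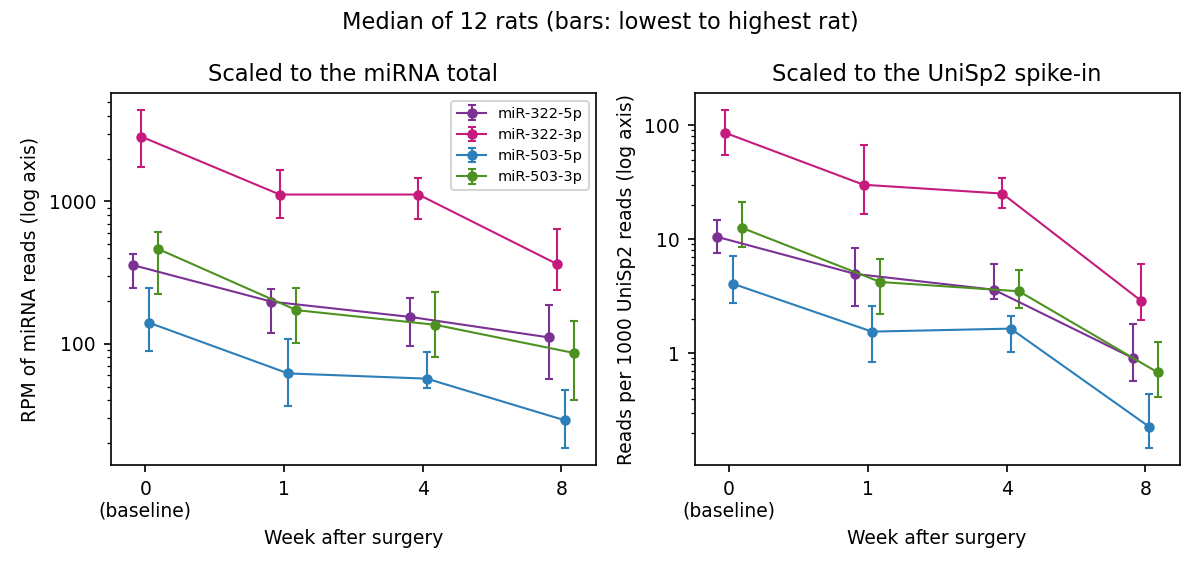
Level of each of the 4 miRNAs in RPM (left) and in reads per 1000 UniSp2 reads (right), both on log axes, against the week after surgery, as the median of 12 rats with bars from the lowest to the highest rat. On both scales the medians of all 4 lay below baseline at each later week, and the drop at week 8 was steeper on the UniSp2 scale.

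The arms of the miR-322 hairpin did not fall alike. The ratio of 3p to 5p reads, with 1 RPM added to each arm, compares miRNAs within a sample, so that the choice of scale hardly enters it. For miR-322 its geometric mean over 12 rats was 8.22 before surgery (range 6.21 to 10.4). It then stood at 6.40 after 1 week (5.34 to 7.99), 6.94 after 4 weeks (4.84 to 8.88) and 3.45 after 8 weeks (2.33 to 4.87). Every rat had a lower ratio at week 8 than at baseline, and the ranges of these weeks did not overlap. The log2 change of the ratio was -0.36 ± 0.29, -0.24 ± 0.30 and -1.25 ± 0.39 in the same order of weeks (SD, n = 12). Of the 76 hairpins with both arms measured, miR-322 had the 7th largest fall of this ratio at week 8, when the middle 50% of hairpins lay between -0.63 and 1.11. At week 1 that middle lay between -0.12 and 0.31, and at week 4 between -0.09 and 0.09. The ratios of many hairpins thus moved at week 8, in both directions, and the cause of this was not tested.

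For miR-503 the ratio of 3p to 5p was lower and showed no steady course. It was 2.94 before surgery (2.04 to 3.39 over 12 rats) and then 2.54 (1.71 to 4.21), 2.28 (1.48 to 3.42) and 2.78 (1.42 to 6.84) at the later weeks. The ranges of all weeks overlapped, and the log2 change at week 8 was -0.08 ± 0.73, with 7 of 12 rats lower. Few reads lay behind the week 8 ratios, since miR-503-5p then had a median of 16.5 reads. Between the hairpins, miR-322-3p exceeded miR-503-3p 6.77-fold at baseline and 4.46-fold at week 8, while miR-322-5p exceeded miR-503-5p 2.43-fold and 3.60-fold.

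**Figure D3:**
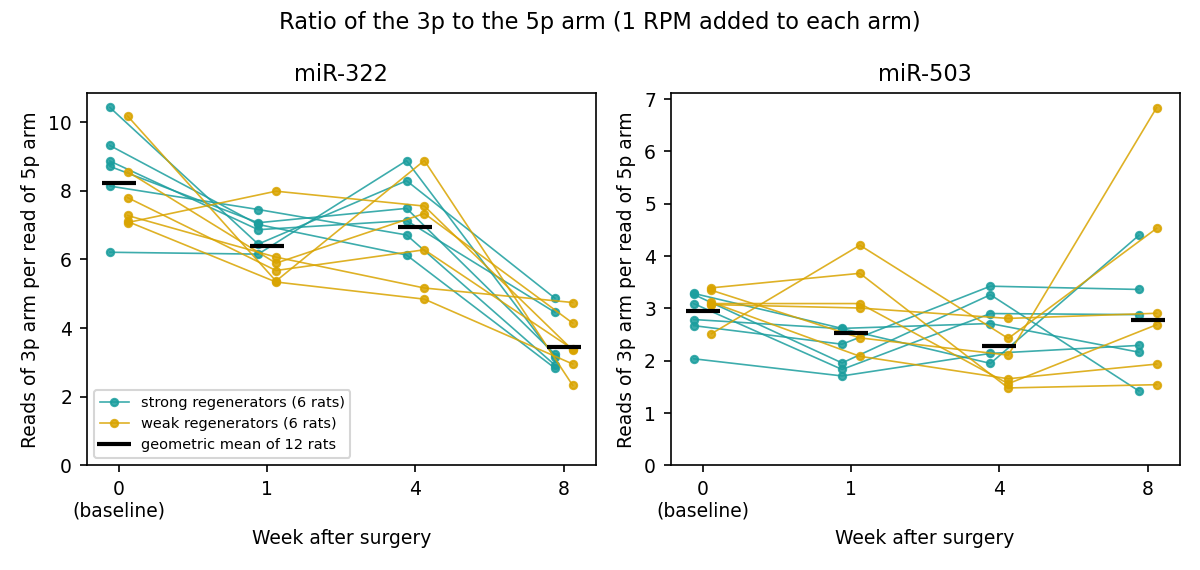
Ratio of 3p to 5p reads for miR-322 and miR-503, with 1 RPM added to each arm (linear axis), against the week after surgery, with 1 line per rat for 6 strong (teal) and 6 weak (yellow) regenerators and black bars for the geometric mean of 12 rats. For miR-322 every rat was lower at week 8 (2.33 to 4.87) than any rat at baseline (6.21 to 10.4), and for miR-503 the weeks overlapped.

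The comparison of strong with weak regenerators asked whether the 4 miRNAs follow the outcome of healing, and the choice of the members did not use it. None of the 4 was called at any week or over all time points, with all 48 samples in edgeR's quasi-likelihood test. Of all 645 miRNAs, 0% were called at baseline, week 1 and week 4 and over all time points, and 0.155% at week 8. At an unadjusted p under 0.05, 1 of the 4 passed at week 1 and 1 over all time points, miR-503-5p in both cases, and none at baseline, week 4 or week 8. That unadjusted threshold was passed by 32 of all 645 miRNAs at week 1 and by 64 over all time points. It was passed by 42, 25 and 35 at baseline, week 4 and week 8. DESeq2 called 0 of the 4 in each of these comparisons, as did limma-voom with the rat as a random effect.

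The difference nearest to the threshold was that of miR-503-5p. At week 1 it lay between 38.1 and 108 RPM in strong regenerators (median 83.7) and between 36.8 and 68.8 RPM in weak regenerators (median 53.3), and 4 of the 6 strong regenerators were above every weak regenerator. The log2 difference was 0.54 (SE 0.23, 95% interval 0.09 to 1.00, edgeR, FDR = 0.859). It was 0.34 at baseline, -0.02 at week 4 and 0.33 at week 8. Over all time points it was 0.29 (SE 0.11, 95% interval 0.07 to 0.52, edgeR, FDR = 0.272), in a fit that takes the 4 samples of a rat as independent. With the samples of a rat summed it was 0.20 (edgeR, FDR = 0.888).

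The other 3 miRNAs had smaller differences over all time points, and every group of strong regenerators overlapped that of weak regenerators at the same week. For miR-322-5p the log2 difference over all time points was 0.02 (95% interval -0.18 to 0.21, edgeR, FDR = 0.979). By week, miR-322-5p differed by 0.19, -0.11, 0.07 and -0.10, and miR-322-3p by 0.28, 0.05, 0.22 and -0.02, at weeks 0, 1, 4 and 8. miR-503-3p had its widest difference at week 4, when it lay between 111 and 232 RPM in strong regenerators (median 170.2) and between 80.5 and 186 RPM in weak regenerators (median 110.05). That log2 difference was 0.40 (95% interval -0.09 to 0.89, edgeR, FDR = 0.851), and 3 of the 6 strong regenerators were above every weak regenerator. Over the 4 miRNAs, the 95% intervals at single weeks reached from -0.51 to 1.00 on the log2 scale.

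The fall from baseline was compared between the classes as well. The difference of the change between strong and weak regenerators ran from -0.36 to 0.23 on the log2 scale over the 4 miRNAs and 3 weeks. None was called (edgeR, lowest FDR = 0.887), and 0% of the 645 miRNAs were called. At an unadjusted p under 0.05, 0 of these 12 differences passed. Of all 645 miRNAs, 27, 38 and 26 passed it at weeks 1, 4 and 8. DESeq2 and the fit with the rat as a fixed block also called 0 of the 12 differences. In the ratio of arms, strong and weak regenerators averaged 2.64 ± 0.13 and 2.51 ± 0.13 for miR-322 on the log2 scale (SD over 6 rats each, exact permutation test, two-sided, p = 0.141, FDR = 0.815 over 76 hairpins). For miR-503 they averaged 1.35 ± 0.19 and 1.44 ± 0.27 (exact permutation test, two-sided, p = 0.498, FDR = 0.877), and 0% of the 76 hairpins were called. For the level, the fall and the ratio of arms of miR-322 and miR-503, no difference between the classes passed the adjusted threshold.

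**Figure D4:**
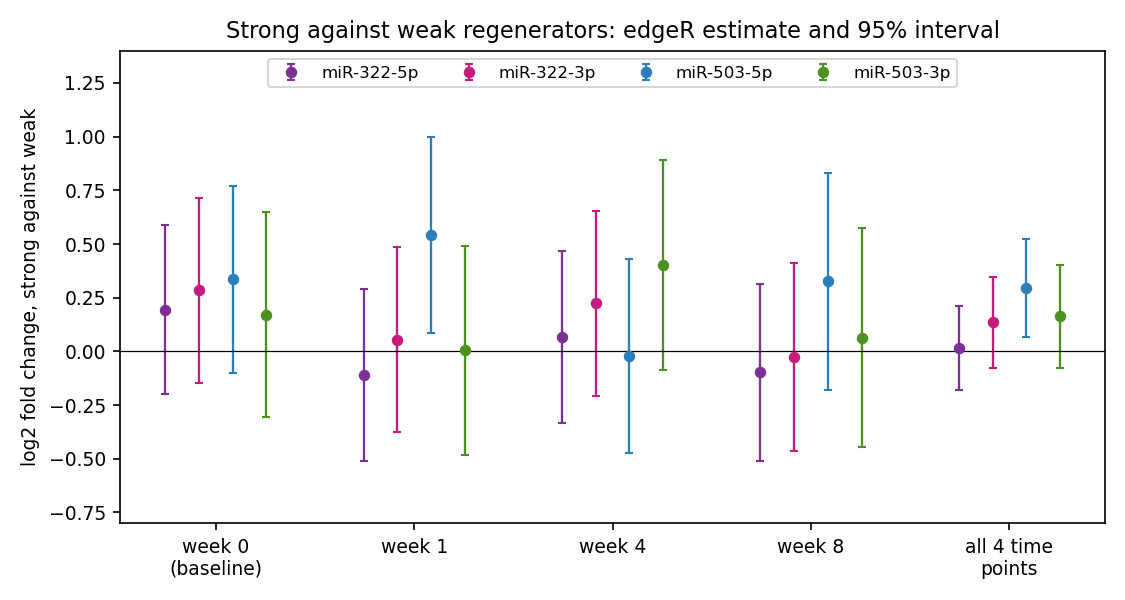
Log2 difference of strong minus weak regenerators for each of the 4 miRNAs at weeks 0, 1, 4 and 8 and over all time points, with bars for the 95% interval (edgeR). Only the intervals of miR-503-5p at week 1 (0.09 to 1.00) and over all time points (0.07 to 0.52) left out 0, and neither passed the FDR.

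The other miRNAs of the row of hairpins went the same way as miR-322 and miR-503. Of the 8 listed from Mir351, Mir542, Mir450a1 and Mir450b-1, 4 of 5 tested were lower at week 1 and 7 of 8 both at week 4 and at week 8, and none was higher (edgeR, FDR under 0.05). Over all miRNAs tested, the share called lower was 9.05%, 4.03% and 26.1% at weeks 1, 4 and 8. The median log2 change of the 7 with at least 10 RPM was -0.89, -1.09 and -1.71 at weeks 1, 4 and 8, beside -0.15, -0.04 and -0.22 over all 310 miRNAs. miR-351-3p fell from 249.8 ± 70.1 RPM at baseline to 40.5 ± 11.0 RPM at week 8, and miR-542-3p from 222 ± 55.4 to 58.5 ± 22.6 RPM (SD, n = 12). The row was not uniform. miR-450a-5p, the most abundant of the 8, was not called at week 1 (log2 change -0.43, edgeR, FDR = 0.129). It was called lower at week 4 (-1.09, FDR = 0.000137) and changed by -0.50 at week 8 (FDR = 0.0491). The week 8 call was lost with the rat as a block (FDR = 0.088), RLE scaling (FDR = 0.168), filterByExpr (FDR = 0.152), no filter (FDR = 0.0511) and DESeq2 (FDR = 0.163). It was kept with library size only (FDR = 0.0279) and on the UniSp2 scale (FDR = 1.58e-11). miR-450a-3p averaged 0.369 RPM and was too scarce to follow.

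The miRNAs with a related seed were mixed, with members that were lower, higher or not called. The list held miR-15b-5p, miR-16-5p, miR-195-5p and miR-497-5p, whose seeds are printed above, and miR-15a-5p, and its median log2 change was -0.21, 0.14 and -0.16 at weeks 1, 4 and 8. None of the 5 was called lower at week 1 or week 4, and 1 was at week 8, miR-15b-5p with -1.05 (edgeR, FDR = 5.82e-05). At week 8, 26.1% of all miRNAs tested were called lower. miR-195-5p changed by -0.86 at week 8 (edgeR, FDR = 0.0691), while its mean change within rats was -1.41 ± 1.49 (SD, n = 12). With the rat as a block miR-195-5p was called lower as well (-1.07, FDR = 0.0185), as it was with library size only (FDR = 0.0486), which made 2 of the 5. miR-15a-5p was called higher at week 1 (0.35, FDR = 0.0301) and week 8 (0.48, FDR = 0.000535). The week 1 call was lost without a filter (FDR = 0.0694), with library size only (FDR = 0.109) and on the UniSp2 scale (0.03, FDR = 0.924). At week 8 miR-15a-5p was lower on the UniSp2 scale (edgeR, -1.47), where all 5 were called lower. The 6 miRNAs found with the shared 6 seed bases were summed as a set. miR-322-5p made up 0.353% ± 0.073 of their reads at baseline and 0.125% ± 0.041 at week 8, and miR-503-5p 0.148% ± 0.043 and 0.0330% ± 0.0076 (SD, n = 12). miR-15a-5p, which had no sequence under that name, was left out of this sum, although it averaged 7729 RPM over the 48 samples. Nearly all of the summed reads were miR-16-5p, an abundant blood cell miRNA.

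A list of 4 cartilage miRNAs, both arms of miR-140 and miR-455, was compared next. By median change it came nearer to miR-322 and miR-503 than the row or the seed relatives did. All 4 were called lower at each week (edgeR, FDR under 0.05), beside 9.05%, 4.03% and 26.1% of all miRNAs tested. Their median log2 change was -0.95, -1.18 and -2.00. miR-140-3p fell from 95441 ± 15080 RPM at baseline to 31558 ± 5966 RPM at week 8, and miR-455-5p from 962 ± 227 to 186 ± 61.1 RPM (SD, n = 12). In the row, miR-351-3p fell further than each of the 4 cartilage miRNAs at every week, by -1.39, -1.67 and -2.58. miR-140 is known for its expression in chondrocytes, and these lists were made with the earlier results known, so that their counts are not independent of the pattern.

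**Figure D5:**
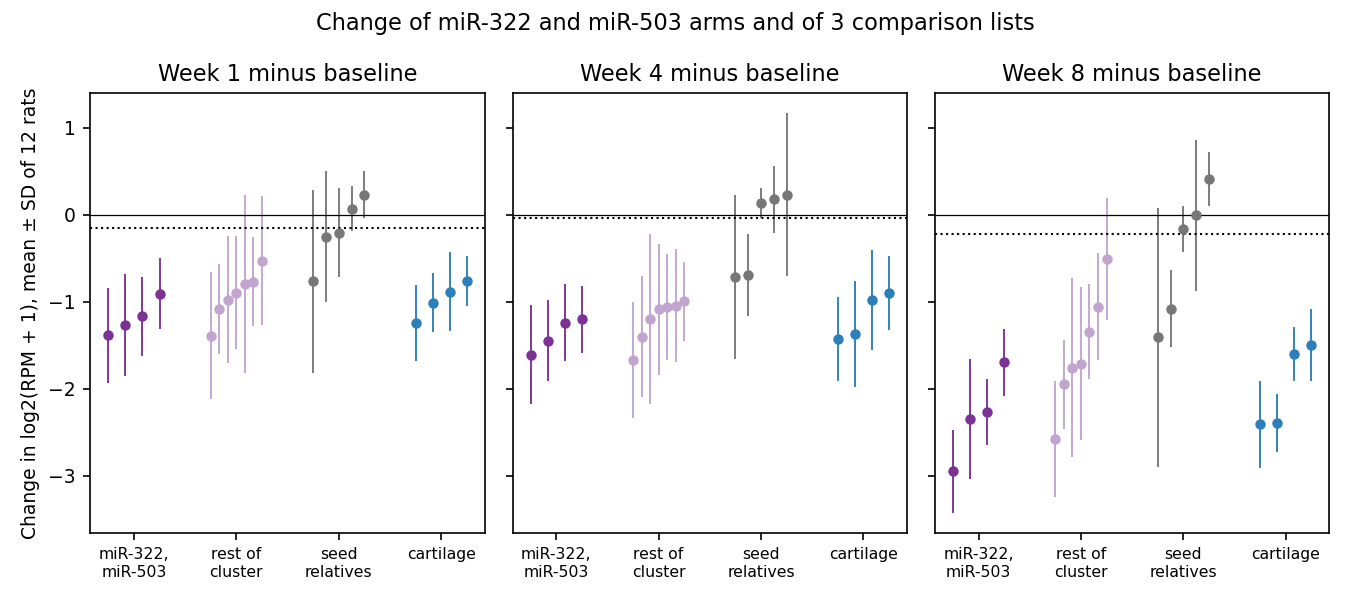
Mean log2 change from baseline at weeks 1, 4 and 8 for the 4 miRNAs, the other miRNAs of the row of hairpins with at least 10 RPM, the seed relatives and the cartilage miRNAs, with bars for the SD of 12 rats and a dotted line for the median of all 310 miRNAs. At week 8 the seed relatives lie on both sides of the dotted line, from miR-195-5p (-1.41) and miR-15b-5p (-1.08) below it to miR-15a-5p (0.41) above it. The cartilage miRNAs (median -2.00) and all plotted miRNAs of the row (median -1.71, range -2.58 to -0.51) lie below it.

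The miRNAs whose levels followed the 4 most closely were searched among the 306 others with at least 10 RPM, by the Pearson correlation with the mean of the 4 over 48 samples. The closest were miR-351-3p (r = 0.96), miR-455-5p (0.95), miR-140-3p (0.94), miR-149-5p (0.92) and miR-140-5p (0.90). With the mean of each week removed, which leaves differences between rats, they were miR-351-5p (0.78), miR-351-3p (0.74), miR-214-3p (0.67), miR-455-5p (0.65) and miR-140-3p (0.63). miR-351-3p, miR-455-5p and miR-140-3p were among the closest 5 both ways. These are descriptions, as the samples share rats, weeks and library totals.

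The 4 miRNAs also followed each other, with r between 0.86 and 0.93 over 48 samples. They were chosen for a shared fall after surgery, which by itself raises this r, so nothing is read from its height. With the week means removed, the pairs differed. The arms of miR-322 kept r = 0.75 and the 3p arms of both hairpins r = 0.77, while miR-503-5p had 0.38 with miR-322-5p, 0.44 with miR-503-3p and 0.51 with miR-322-3p. The median over all 47895 pairs of the 310 miRNAs was 0.06 before and 0.07 after the week means were removed. miR-503-5p, the scarcest of the 4, was thus the least tied to the others, and its counting error is also the largest.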

How the data were processed

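Plasma small RNA of 48 samples was prepared by single-adapter ligation. The authors trimmed adapters with cutadapt 3.3 and mapped reads with Bowtie 1.3.0 and miRDeep2, and deposited raw read counts, not normalized, for 645 miRNAs and 3 spike-ins. Their processing notes list the build GRCh38.p12 while the methods name the rat genome, and the cause of this was not resolved. RPM were computed here from the miRNA total.

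The members and all lists were chosen with earlier results of these data known, and the miRNAs named are the members, the listed miRNAs and the 5 most alike by each of 2 correlations. Contrasts were fitted to all 48 samples with edgeR 4.0.16 (R 4.3.3), TMM normalization and the DESeq2 rule of independent filtering. These fits held no term for the rat. The tests against baseline, of the difference in change and over all time points thus took the samples of a rat as independent. Changes of single rats used log2(RPM + 1). The ratio of arms was compared by exact permutation over 924 splits of 12 rats. Alternatives were DESeq2 1.42.0, limma 3.58.1 (voom), other scalings and filters, the rat as a block, and each rat left out. Samples of a rat are repeated draws from 1 animal (mean correlation of deviations 0.107 within and -0.029 between rats), and no sample was a copy of another. On simulated counts over 645 miRNAs, 79% of log2 differences of 1 were recovered for strong against weak at week 1. There, 100 miRNAs were changed by 1 and 100 by 2 together, all from the better counted ones, without a rat effect. So many changed miRNAs make the adjusted threshold more lenient than in the real contrast. The share is thus no measure of the power for the 4 miRNAs. Reads are not counted as molecules, so counts cover counting error only.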

Additional observations from a re-analysis of the deposited data

Results flagged for a closer look

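Of 48 sets of 6 samples looked at (level or arm ratio by class and week), 4 had a lowest or highest sample far from the rest by Dixon's test, and chance marks about 1 in 20. miR-503-5p at week 4 in strong regenerators was 84.8 RPM in 1 rat, and the next was 62.0 and the lowest 51.9. miR-503-5p at week 8 in weak regenerators was 43.2 RPM in 1 rat, and the next was 26.9 and the lowest 18.3. The miR-322 ratio of 3p to 5p at week 1 in weak regenerators was 7.99 in 1 rat, and the next was 6.07 and the lowest 5.34. The miR-503 ratio at baseline in weak regenerators was 2.52 in the lowest rat, the same rat, and the next was 3.07 and the highest 3.39.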

How the results depend on the processing

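Most values held, with 455 of the recomputed values labelled the same and 9 labelled moved. A change was the same if it kept its sign and moved by less than the spread between rats. A count of calls was the same if it was equal, or if both counts were above 0 and within a set ratio. Counts of 0 calls that stayed at 0 are among the 455. No strong against weak call was made for any of the 4 miRNAs in any setting, and leaving out each rat gave 0 to 0 calls. The log2 change at week 8 moved with the UniSp2 scale, to -3.52 for miR-322-5p, -4.79 for miR-322-3p, -4.04 for miR-503-5p and -4.17 for miR-503-3p. On that scale 59, 60 and 498 miRNAs were called lower at weeks 1, 4 and 8, against 21, 26 and 162. The week 8 count was 100 with filterByExpr and 105 with limma-voom and the rat as a random effect (replicate block). The cause of these shifts was not tested. Under a fixed replicate block for the rat in edgeR, the log2 change at week 8 was -1.63 for miR-322-5p, -2.88 for miR-322-3p, -2.21 for miR-503-5p and -2.26 for miR-503-3p, and this block changed no call of the 4. Leaving out each rat in turn gave changes of -0.96 to -0.82, -1.25 to -1.12 and -1.76 to -1.63 for miR-322-5p at weeks 1, 4 and 8, of -1.37 to -1.16, -1.51 to -1.36 and -3.02 to -2.89 for miR-322-3p, of -1.25 to -1.08, -1.29 to -1.16 and -2.32 to -2.20 for miR-503-5p, and of -1.47 to -1.31, -1.70 to -1.52 and -2.46 to -2.24 for miR-503-3p. The count called lower ran from 14 to 24, 23 to 29 and 129 to 160, with 0 to 0 hairpins called in the ratio of arms. An alternative chosen after seeing the data, without week 8, left miR-503-5p at 0.30 between the classes (edgeR, FDR = 0.579). Depth limits miR-503-5p most, with 8 to 47 reads per sample at week 8.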
